A study of Mus musculus with 18 samples.

Results

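This report describes 10 genes of the integrated stress response and the mitokines in mouse left ventricle, out of 55450 genes in the count table. They are Atf4, Atf5, Ddit3, Trib3, Asns, Phgdh, Psat1, Mthfd2, Fgf21 and Gdf15. They were chosen by name, with no measured value in the rule but with earlier results of these data known. Each was found in the table by its Ensembl identifier. Of the 10, 9 had enough counts to be tested. Fgf21 did not.

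The hearts came from male FVB/N mice, either wild type (WT) or carrying a cardiac-specific transgene for Gαq, the product of Gnaq, which relays signals from receptors for angiotensin, endothelin and noradrenaline. The controls were littermates of the transgenic mice. Both genotypes ate a control diet (CD) or the same chow with 0.5 mg per g of ertugliflozin (ERTU), an inhibitor of the kidney glucose transporter SGLT2, from 4 weeks of age for 16 weeks, until 20 weeks of age. The 18 hearts were 4 of WT CD, 5 of WT ERTU, 5 of Gαq CD and 4 of Gαq ERTU, with 1 poly(A) RNA library from the frozen, powdered left ventricle of each. The Gαq mice are a model of non-diabetic heart failure with dilation that rests on overexpression of 1 gene in the heart, and the promoter that drives the transgene was not given in the sources used here. Hearts are named by their group and the number the count table gives them (Gαq ERTU 17, for example).

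The integrated stress response starts when a kinase that senses amino acid shortage, misfolded protein, heme shortage or viral RNA phosphorylates the translation factor eIF2 on its alpha subunit. Most translation then slows, while the mRNA of the transcription factor ATF4 is translated more, so that ATF4 protein can rise with no change in Atf4 mRNA. ATF4 and its partners, CHOP (Ddit3) and ATF5 among them, turn on genes for amino acid synthesis and transport, serine and one-carbon metabolism, and the secreted hormones FGF21 and GDF15. Because mitochondrial faults in muscle and heart also set this response off, the 2 hormones are called mitokines.

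Many promoters that ATF4 binds hold the C/EBP-ATF response element. Its letters TGATGNAA (TTNCATCA on the other strand) were searched for in the 250 bases before each RefSeq start site of build GRCm38.p6, on both strands, with no other motif searched. All 10 genes were in the RefSeq table, with 13 windows between them, and 2 windows held a match, those of Asns and Fgf21. Of all 32851 windows, 1134 (3.45%) held one. The 30 bases around each match are shown because they are the only matches among the 10 genes, 5′ to 3′ on the strand of the gene, with the matched letters in capitals:
Asns, chr6:7693214-7693243, minus strand: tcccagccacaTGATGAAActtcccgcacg
Fgf21, chr7:45615611-45615640, minus strand: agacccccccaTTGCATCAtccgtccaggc

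The Asns match began 23 bases before the RefSeq start, inside the first exon and 5′ UTR of Asns in GENCODE M21. The Fgf21 match began 139 bases before the start, in no annotated exon, and reads in the reverse direction. The first window of Gdf15, of 2, and the window of Mthfd2 are shown as those of the genes that rose most. All 3 windows held no match, so the letters are in lower case throughout, and this says only that TGATGNAA is not in these bases. The Gdf15 window lies just upstream of the annotated gene, and its second window, partly in an exon, is not shown. The Mthfd2 window lies upstream of the first exon of 1 protein-coding transcript but inside the annotated gene, in an intron of another that starts farther upstream, and is printed without its last 2 bases, which fall in an exon:
Mthfd2, chr6:83317607-83317854, minus strand: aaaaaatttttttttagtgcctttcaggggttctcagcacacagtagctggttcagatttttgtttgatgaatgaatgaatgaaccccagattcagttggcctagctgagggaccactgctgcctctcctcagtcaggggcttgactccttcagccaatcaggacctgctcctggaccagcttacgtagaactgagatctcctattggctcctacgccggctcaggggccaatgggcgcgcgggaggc
Gdf15, chr8:70632457-70632706, minus strand: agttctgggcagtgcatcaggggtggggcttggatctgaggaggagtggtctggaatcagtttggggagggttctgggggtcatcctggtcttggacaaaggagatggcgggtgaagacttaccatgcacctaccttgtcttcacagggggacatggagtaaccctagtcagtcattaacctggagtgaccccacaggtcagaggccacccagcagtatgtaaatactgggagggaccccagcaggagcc

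Libraries held between 15383566 and 20908363 counts, of which 16270 genes passed the filter on low counts. As a check of the labels, Gnaq ran from 45.5 to 229.7 CPM (counts scaled to a common library total) in the 9 WT hearts and from 1641 to 11670 CPM in the 9 Gαq hearts. The log2 mean was 61.4-fold higher in Gαq on CD and 32.3-fold higher on ERTU (2-sided exact permutation p = 0.0159 each, the smallest possible). All 10 cardiomyocyte markers were detected, at 83100 to 122000 CPM in sum.

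In Gαq hearts 5 of the 9 genes tested were higher than in WT with diet in the model: Gdf15 8.90-fold, Mthfd2 3.41-fold, Asns 2.18-fold, Atf5 1.51-fold and Ddit3 1.27-fold. A gene was called where the p-value of edgeR's quasi-likelihood test, adjusted over all 16270 genes by the Benjamini-Hochberg method, was under 0.05. By the same rule 19.6% of all genes tested were called by genotype, and 9.72% of all genes were called higher. Atf4, Trib3, Phgdh and Psat1 were not called. None of the 9 was called for ERTU in either genotype. The median log2 fold change of the 9 genes by genotype was 0.37, against 0.0038 over all genes tested.

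Gαq was also compared with WT within each diet. On CD, Atf5, Asns, Mthfd2 and Gdf15 were called, all higher, where 8.10% of all genes were called and 4.00% were called higher. On ERTU the same 4 genes were called, all higher, where 8.17% of all genes were called and 3.93% were called higher. For these 4 genes every Gαq heart lay above every WT heart, a separation that 1.73% of all genes tested showed in that direction.

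**Figure D1:**
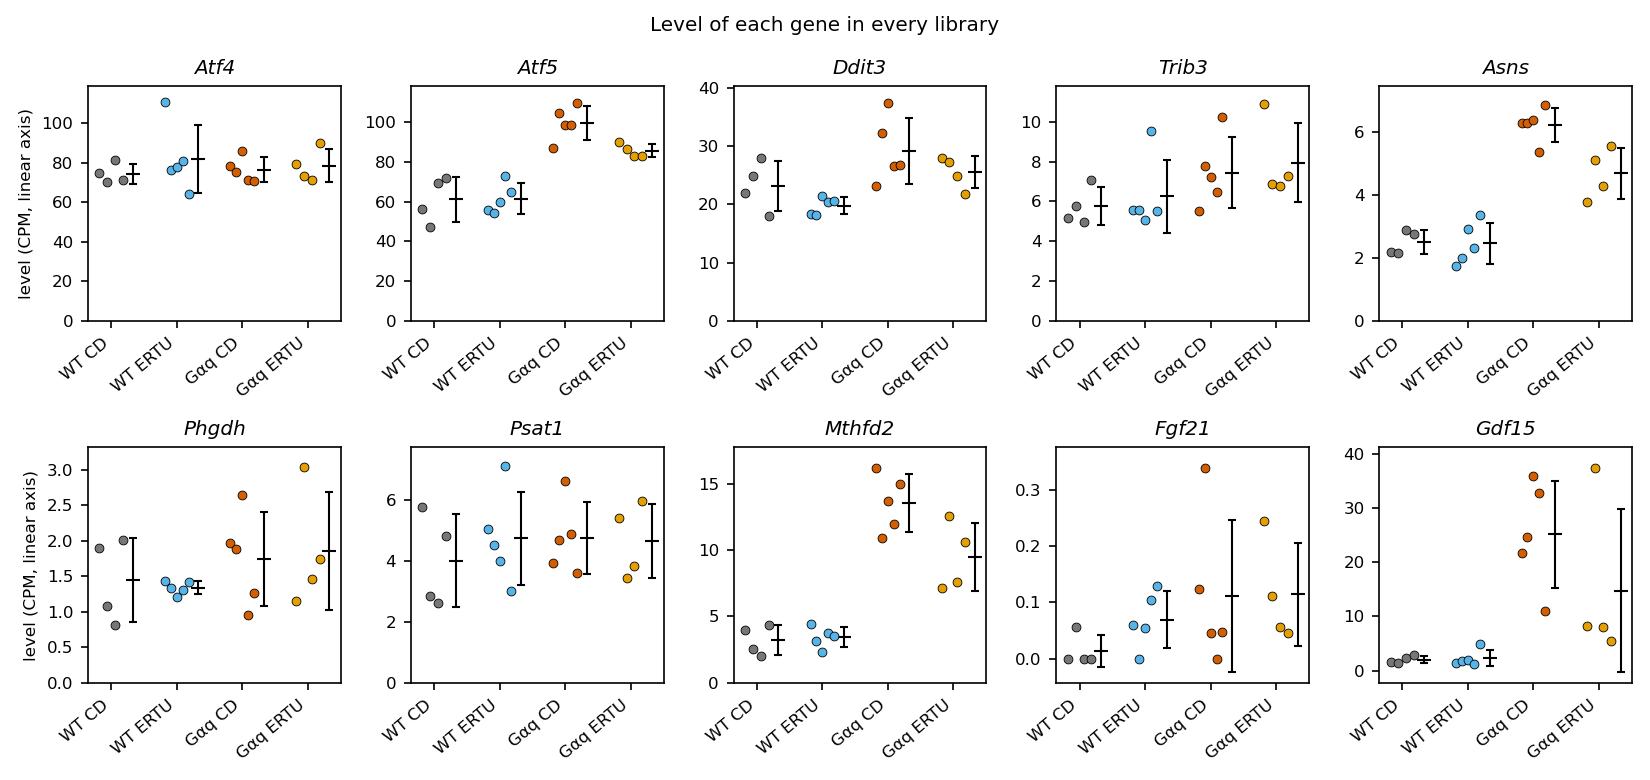
Level of each of the 10 genes, in CPM on a linear axis, in every library by group, with each gene on its own axis. Points are libraries and the bars beside them are the mean ± SD of the group (n = 4 or 5). The Gαq points of Atf5, Asns, Mthfd2 and Gdf15 sit above all WT points, while those of Atf4 and Psat1 lie among them. Those of Phgdh overlap with the WT points, with Gαq CD 8 and Gαq ERTU 17 above them. Values are given in the text.

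**Figure D2:**
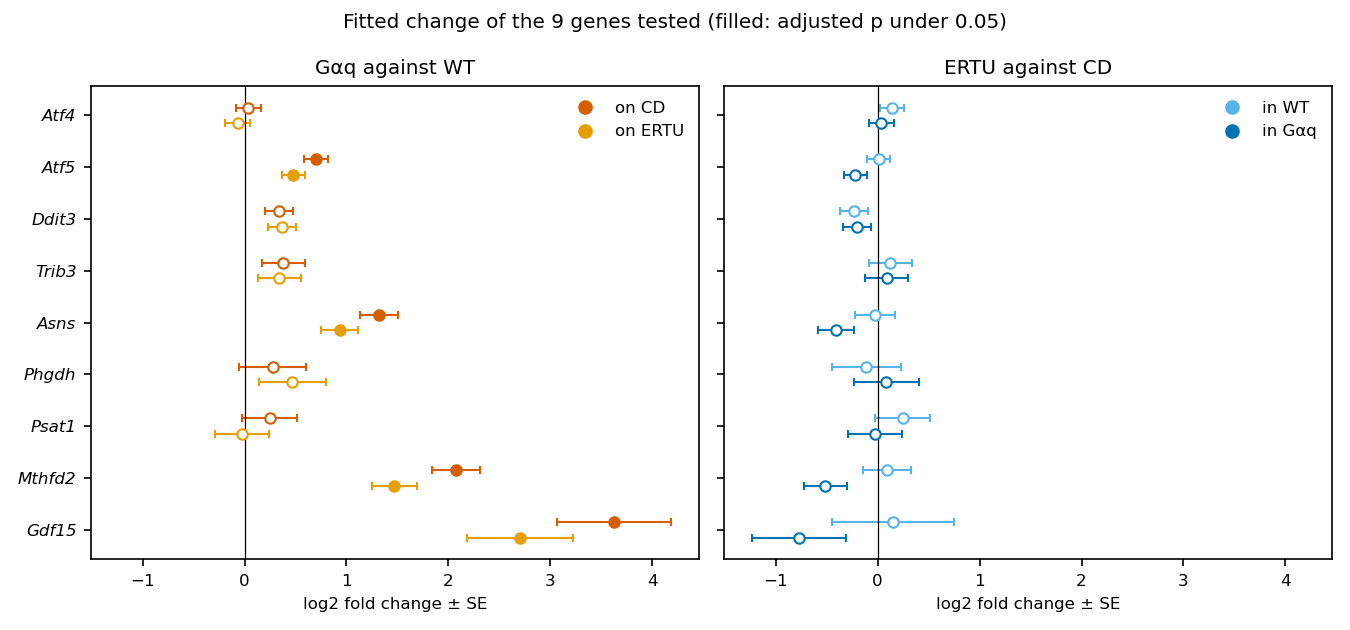
Fitted log2 fold change with its SE for the 9 genes tested, Gαq against WT on the left and ERTU against CD on the right. Filled points have an adjusted p under 0.05. Gdf15 and Mthfd2 lie farthest right on the left panel, and every point on the right panel is open.

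The transcription factors come first. Atf4 (ENSMUSG00000042406, chromosome 15, 80255184 to 80257541), the factor on which the response converges, ran from 70.1 to 81.4 CPM in WT CD and from 70.6 to 86.1 CPM in Gαq CD. It ran from 64.4 to 110.7 CPM in WT ERTU and from 71.0 to 89.7 CPM in Gαq ERTU. The 4 groups overlapped throughout, and the highest value was in a WT heart, WT ERTU 11. The log2 fold change by genotype was -0.01 ± 0.08 (SE, adjusted p = 0.931). These are mRNA levels, and ATF4 protein was not measured here.

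Atf5 (ENSMUSG00000038539, chromosome 7, 44812256 to 44816658) encodes a related factor that in worms and mammalian cells is tied to mitochondrial stress. Its levels in WT were 56.3, 47.5, 69.1 and 71.6 CPM on CD and 55.6, 54.1, 59.8, 72.9 and 65.0 CPM on ERTU. In Gαq they were 87.0, 104.5, 98.5, 98.2 and 109.3 CPM on CD and 89.9, 86.5, 82.9 and 83.1 CPM on ERTU. The lowest Gαq heart thus stood above the highest WT heart, on either diet. The log2 fold change was 0.70 ± 0.12 on CD (SE, adjusted p = 0.000578) and 0.48 ± 0.11 on ERTU (adjusted p = 0.0113), and 0.59 ± 0.08 over both diets (adjusted p = 2.72e-05).

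Ddit3 (ENSMUSG00000025408, chromosome 10, 127290774 to 127296288), known as CHOP, is a factor linked to cell death when the response lasts. It ran from 17.95 to 27.9 CPM in WT CD, from 18.2 to 21.5 CPM in WT ERTU, from 23.1 to 37.4 CPM in Gαq CD and from 21.9 to 28.0 CPM in Gαq ERTU. The genotypes overlapped on CD and stood just apart on ERTU, at 21.5 against 21.9 CPM. With diet in the model Ddit3 was higher in Gαq by 0.35 ± 0.09 (log2, SE, adjusted p = 0.0114), but it was not called on CD (0.33 ± 0.14, adjusted p = 0.155) or on ERTU (0.36 ± 0.14, adjusted p = 0.115) alone.

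Exons of Atf5 share 82 bases with Nup62 and Il4i1 on the opposite strand, and those of Ddit3 share 68 bases with Mars. The study's methods describe counting on the same strand, but whether the kit marked the strand was not given in the sources used here. Reads from those bases are therefore uncertain.

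Trib3 (ENSMUSG00000032715, chromosome 2, 152337422 to 152344032) encodes a pseudokinase that ATF4 and CHOP induce and that dampens them in turn. It ran from 4.98 to 7.09 CPM in WT CD, from 5.05 to 9.54 CPM in WT ERTU, from 5.53 to 10.2 CPM in Gαq CD and from 6.78 to 10.9 CPM in Gαq ERTU. Its groups overlapped. The log2 fold change by genotype was 0.36 ± 0.14 (SE), which was not called (unadjusted p = 0.0217, adjusted p = 0.0879).

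Among the enzymes of amino acid and one-carbon metabolism, Asns (ENSMUSG00000029752, chromosome 6, 7675169 to 7693254) makes asparagine from aspartate and is a textbook target of ATF4. In WT its levels were 2.19, 2.17, 2.89 and 2.76 CPM on CD and 1.74, 2.01, 2.91, 2.31 and 3.35 CPM on ERTU. In Gαq they were 6.27, 6.29, 6.36, 5.36 and 6.84 CPM on CD and 3.78, 5.10, 4.29 and 5.56 CPM on ERTU. The 5 Gαq CD hearts lay close together and the 4 Gαq ERTU hearts lay between them and WT, with Gαq ERTU 20 inside the Gαq CD range. Asns was higher in Gαq by 1.31 ± 0.19 on CD (log2, SE, adjusted p = 0.000136) and by 0.93 ± 0.18 on ERTU (adjusted p = 0.00262).

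Mthfd2 (ENSMUSG00000005667, chromosome 6, 83305691 to 83325908) is the mitochondrial folate enzyme better known from embryonic and dividing cells, and is low in most adult tissue. In WT its levels were 3.98, 2.56, 2.03 and 4.33 CPM on CD and 4.44, 3.18, 2.30, 3.72 and 3.54 CPM on ERTU. In Gαq they were 16.2, 10.9, 13.8, 11.98 and 15.04 CPM on CD and 7.19, 12.6, 7.63 and 10.6 CPM on ERTU. No Gαq heart came near the highest WT heart, at 4.44 CPM, and the lower Gαq values were those of Gαq ERTU 16 and 18. The log2 fold change was 2.08 ± 0.23 on CD (SE, adjusted p = 1.13e-05) and 1.47 ± 0.22 on ERTU (adjusted p = 0.000296).

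Phgdh and Psat1, enzymes of serine synthesis from glucose, were not called. Phgdh (ENSMUSG00000053398, chromosome 3, 98313170 to 98339990), which catalyses the first step, ran from 0.811 to 2.01 CPM in WT CD, from 1.21 to 1.44 CPM in WT ERTU, from 0.954 to 2.65 CPM in Gαq CD and from 1.16 to 3.05 CPM in Gαq ERTU. These were 14 to 58 counts per library, so that changes of modest size were not detectable at this depth. Psat1 (ENSMUSG00000024640, chromosome 19, 15904678 to 15947337), which acts next, ran from 2.61 to 5.77 CPM in WT CD, from 3.03 to 7.13 CPM in WT ERTU, from 3.61 to 6.63 CPM in Gαq CD and from 3.44 to 5.97 CPM in Gαq ERTU. Groups overlapped for both genes. By genotype the log2 fold change was 0.37 ± 0.23 for Phgdh (SE, adjusted p = 0.277) and 0.11 ± 0.19 for Psat1 (adjusted p = 0.736).

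Of the mitokines, Gdf15 (ENSMUSG00000038508, chromosome 8, 70629393 to 70632456) encodes a hormone that lowers food intake through the hindbrain receptor GFRAL and that circulates at higher levels in heart failure. In WT its levels were 1.67, 1.37, 2.26 and 2.89 CPM on CD and 1.499, 1.84, 1.97, 1.21 and 4.96 CPM on ERTU. In Gαq they were 21.6, 24.7, 36.0, 32.8 and 10.97 CPM on CD and 8.16, 37.4, 8.08 and 5.56 CPM on ERTU. All 9 Gαq hearts were above all WT hearts, but by little at the near ends, 5.56 CPM in Gαq ERTU 20 against 4.96 CPM in WT ERTU 15. Gαq ERTU 17 was the highest of all 18 hearts, while the other 3 of its group ran from 5.56 to 8.16 CPM.

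Gdf15 was higher in Gαq by 3.62 ± 0.56 on CD (log2, SE, adjusted p = 0.000308), 12.3-fold. On ERTU it was higher by 2.70 ± 0.52 (adjusted p = 0.00225), 6.52-fold. Without Gαq ERTU 17 the value on ERTU was 1.68 (3.19-fold, adjusted p = 0.0125), still past the threshold.

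Fgf21 (ENSMUSG00000030827, chromosome 7, 45613886 to 45615490), a hormone made mainly by the liver that acts on fat and brain through the coreceptor beta-klotho, gave 26 counts over all 18 libraries. There were 1 in WT CD, 6 in WT ERTU, 11 in Gαq CD and 8 in Gαq ERTU, and 13 libraries held at least 1 count. The highest library, Gαq CD 7, had 7 counts (0.339 CPM). A library with a count of 0 allows up to 3 counts, which came to 0.137 to 0.193 CPM over the libraries, a limit for counting error only. The limit of its own library was passed in Gαq CD 7 and Gαq ERTU 16 alone, so no fold change is given and a difference between groups was not detectable at this depth. With no filter on low counts Fgf21 was fitted and was not called in any of 7 comparisons (smallest unadjusted p = 0.0453, Gαq on CD, adjusted p = 0.358). DESeq2 gave it an adjusted p in 4 of the 7, all of them not called.

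Levels of different genes were compared per length of exon, as TPM (CPM divided by exon length and rescaled). In WT CD the order was Atf4 (95.5 ± 6.56 TPM, SD, n = 4), Atf5 (93.4 ± 21.02), Ddit3 (40.8 ± 6.26), Trib3 (8.26 ± 1.84), Gdf15 (3.39 ± 1.29), Psat1 (2.87 ± 1.12), Mthfd2 (2.83 ± 1.07), Asns (2.78 ± 0.515), Phgdh (1.78 ± 0.785) and Fgf21 (0.0443 ± 0.0887). Atf4 and Atf5 overlapped with each other, as did each of Gdf15, Psat1, Mthfd2 and Asns with the next in order, and the other neighbours stood apart.

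In Gαq CD the order changed. Atf5 (151 ± 15.7 TPM, SD, n = 5) led Atf4 (97.6 ± 8.06) with no overlap, and Gdf15 (41.3 ± 16.7) overlapped with Ddit3 (51.6 ± 10.8). Below them came Mthfd2 (11.7 ± 1.37) and Trib3 (10.6 ± 2.41), which overlapped, then Asns (6.86 ± 0.496), and then Psat1 (3.38 ± 0.866) and Phgdh (2.11 ± 0.790), which overlapped, above Fgf21 (0.359 ± 0.455). Among the 16258 tested genes with a known length, the mean TPM of Gdf15 stood at percentile 25.7 in WT CD and 79.7 in Gαq CD. The percentiles were 23.1 and 49.9 for Mthfd2, 22.8 and 37.7 for Asns, and 90.7 and 91.1 for Atf4.

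The comparison with ERTU asked whether the drug moved these genes. In WT hearts none of the 9 was called, where 0.00% of all genes were called. None had an unadjusted p under 0.05, where 365 of all 16270 genes did. The log2 fold changes ran from -0.23 (Ddit3, SE 0.14) to 0.25 (Psat1, SE 0.27). In Gαq hearts none was called either, where 1 of 16270 genes (0.00615%) was. An unadjusted p under 0.05 was found for 2 of the 9 and for 1240 of all 16270 genes. DESeq2, which also fitted Fgf21, called 0 of 10 genes in both comparisons, and limma voom called 0 of 9.

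Those 2 genes were Asns and Mthfd2. In Gαq hearts Asns was 6.23 ± 0.535 CPM on CD (SD, n = 5) and 4.68 ± 0.799 CPM on ERTU (SD, n = 4), a log2 fold change of -0.41 ± 0.18 (SE, unadjusted p = 0.0311, adjusted p = 0.653). Mthfd2 was 13.6 ± 2.17 CPM on CD and 9.50 ± 2.56 CPM on ERTU, a log2 fold change of -0.51 ± 0.21 (unadjusted p = 0.0253, adjusted p = 0.653). Both comparisons, Gαq on CD and ERTU in Gαq, use the same Gαq CD libraries. The ranges of the 2 diets overlapped for every one of the 9 genes in Gαq, where 0.854% of all genes tested had the ERTU range wholly below the CD range and 0.744% wholly above it.

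Gdf15 in Gαq hearts was 25.2 ± 9.86 CPM on CD and 14.8 ± 15.1 CPM on ERTU, a log2 fold change of -0.77 ± 0.46 (SE, adjusted p = 0.663). The high value of 1 heart made this difference smaller. Without Gαq ERTU 17, a heart singled out by its own value, the log2 fold change was -1.80 (3.48-fold lower) and was still not called (adjusted p = 0.385). Over the 18 fits that each left out 1 library it ran from -1.80 to -0.49 and the adjusted p from 0.375 to 0.969.

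Over both genotypes, diet called none of the 9, where 0.00% of all genes were called. Of the 9, 1, Ddit3, had an unadjusted p under 0.05 (log2 fold change -0.21 ± 0.09, SE, unadjusted p = 0.0352, adjusted p = 0.639). Among all 16270 genes 1252 did. Whether the response to ERTU differed between the genotypes was tested as an interaction. None of the 9 was called, where 0.00% of all genes were called. None had an unadjusted p under 0.05, where 313 of all 16270 genes did. The value farthest from 0 against its SE was that of Mthfd2 (-0.61 ± 0.32, unadjusted p = 0.0725, adjusted p = 1.00). DESeq2 and limma voom called 0 of the genes in both tests.

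**Figure D3:**
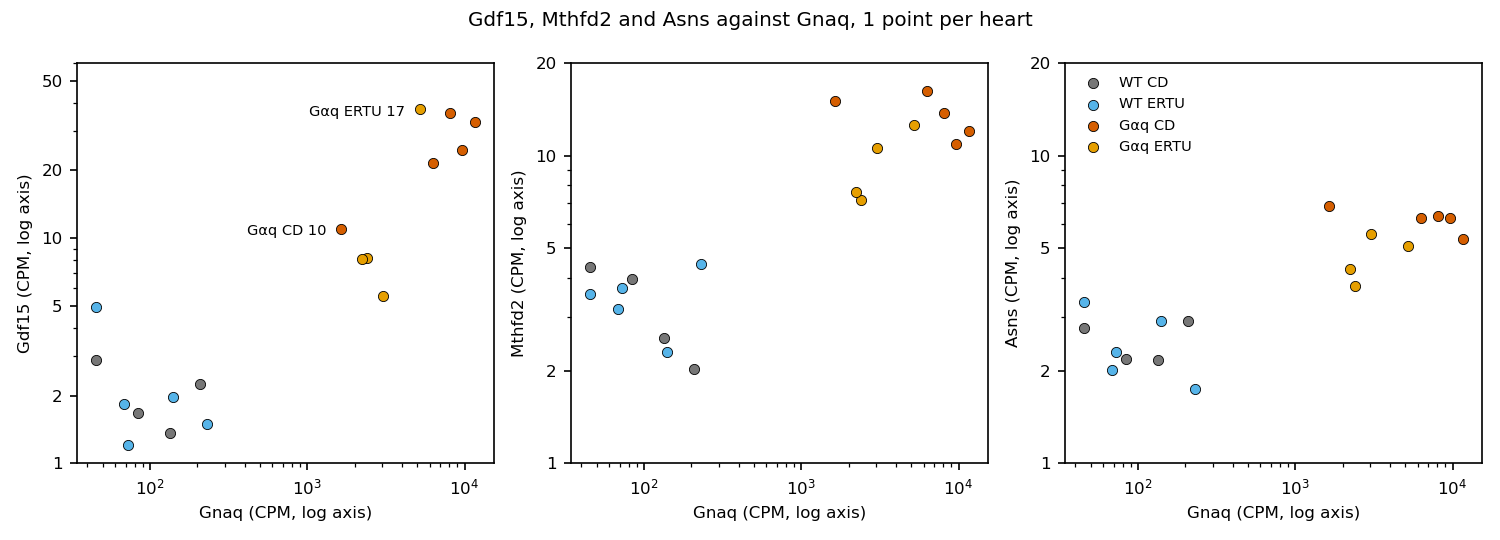
Gdf15, Mthfd2 and Asns against Gnaq, in CPM on log axes, 1 point per heart. Gαq CD 10, the Gαq CD heart with the least Gnaq, has the least Gdf15 of its group (10.97 CPM). Gαq ERTU 17, the ERTU heart with the most Gnaq, has the most Gdf15 (37.4 CPM). Gαq ERTU 20, next in Gnaq among the Gαq ERTU hearts, has the least Gdf15 of that group (5.56 CPM). With the mean of each diet taken off, r for Gdf15 was 0.74 over the 9 Gαq hearts and did not pass the correction (adjusted exact permutation p = 0.178). In the other 2 panels r was -0.15 for Asns and -0.02 for Mthfd2.

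The amount of Gnaq mRNA varied between Gαq hearts and was correlated with the level of each of the 9 genes tested. It was 1641 CPM in Gαq CD 10, the CD heart with the least Gdf15, and 6304 to 11670 CPM in the other 4 Gαq CD hearts. It was 5207 CPM in Gαq ERTU 17 and 2236 to 3031 CPM in the other 3 Gαq ERTU hearts. After the mean of each diet was taken off, log2 CPM of Gdf15 and of Gnaq had a Pearson r of 0.74 (2-sided exact permutation within diet, p = 0.0198) and a Spearman rho of 0.87 (exact permutation p = 0.0219) over the 9 Gαq hearts. Adjusted over the 9 genes correlated with Gnaq in this way, these were p = 0.178 and p = 0.197 (exact permutation), so the relation did not pass the correction.

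Without the 2 hearts farthest from the median of Gnaq, Gαq CD 10 and Gαq ERTU 18, r of Gdf15 with Gnaq was 0.75 (n = 7). It ran from 0.73 to 0.83 when each heart was left out in turn. For the other 8 genes r with Gnaq ran from -0.59 (Trib3) to 0.36 (Phgdh), with the lowest adjusted p at 0.666 (exact permutation). Several of these also turned on 1 heart. Without Gαq CD 9 r was 0.78 for Phgdh (0.36 with it). Leaving out Gαq CD 10 raised r to 0.41 for Atf5 (-0.36 with it), 0.37 for Mthfd2 (-0.02 with it) and 0.29 for Asns (-0.15 with it). For Trib3 r was then -0.11 (-0.59 with it). The same step lowered r to -0.27 for Atf4 (0.19 with it) and to -0.21 for Psat1 (0.29 with it). Without Gαq ERTU 17 r of Mthfd2 was -0.35. Whether r differed between Gdf15 and the other genes was not tested. In Gαq hearts ERTU went with 2.06-fold less Gnaq (exact permutation p = 0.143), and its part in the values of Gdf15, Asns and Mthfd2 on ERTU was not tested.

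**Figure D4:**
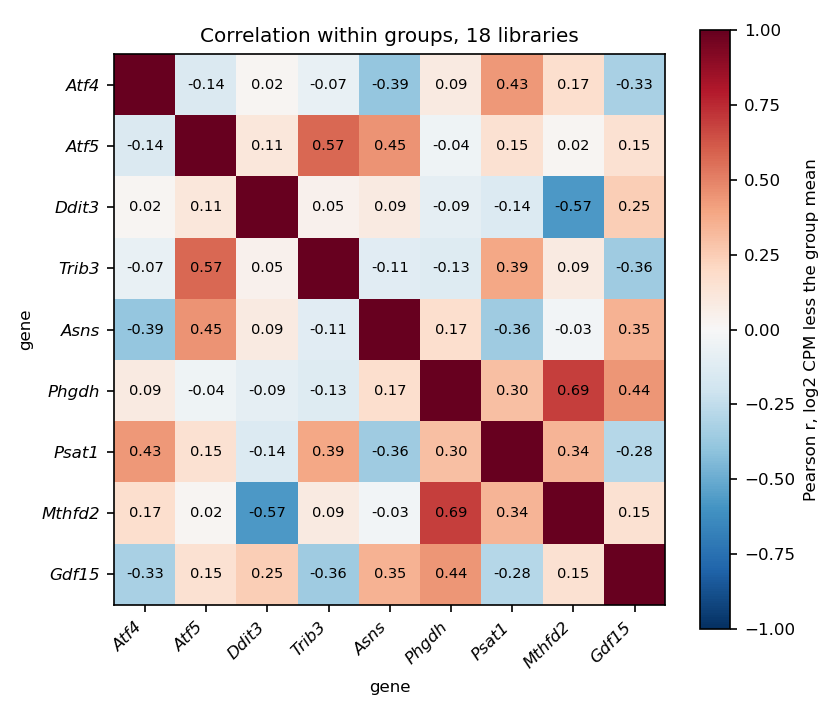
Pearson r between the 9 genes tested, from log2 CPM less the mean of each group, over 18 libraries. Red marks positive and blue negative values. The highest value is that of Phgdh with Mthfd2 (0.69) and the lowest that of Ddit3 with Mthfd2 (-0.57).

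Within groups the values of r between the genes were of both signs. After group means were taken off, 22 of 36 pairs had a positive r over the 18 libraries, with a median of 0.089. These values are a description, with no test, and each pair shares its libraries and their scaling. Counting error weakens r for genes of few counts, such as Asns (38 to 50 counts per library in WT CD) and Phgdh (14 to 58 over all libraries). A low r therefore does not show that 2 genes vary apart. The 4 genes that rose on both diets gave 6 pairs with r from -0.03 to 0.45, the highest being Atf5 with Asns (rho 0.48). Phgdh and Mthfd2 had r = 0.69 (rho 0.68), and Atf5 and Trib3 had r = 0.57 (rho 0.45). Ddit3 and Mthfd2 went opposite ways (r = -0.57, rho -0.62). For Asns and Mthfd2 r was 0.75 over the 9 Gαq hearts and -0.37 over the 9 WT hearts, and the difference was not tested.

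For each gene called in any comparison, the 3 genes of all tested with the highest r of this kind over the 18 libraries were taken. They are the top of 16269 values each, given with no test. Percentile 99 of those values was 0.73 for Gdf15, 0.61 for Asns, 0.64 for Mthfd2, 0.65 for Atf5 and 0.70 for Ddit3. For Gdf15 they were Rrbp1 (r = 0.88), a ribosome-binding protein of the endoplasmic reticulum, Dhdds (0.85), which makes dolichol, and Icmt (0.84), which methylates prenylated proteins. Rrbp1 was itself higher in Gαq by 0.33 ± 0.07 (log2, SE, adjusted p = 0.00142), and the other 2 were not called by genotype. For Asns they were Chst7 (0.84), 9330104G04Rik (0.80) and Psd3 (0.79), and for Mthfd2 they were Rp1 (0.83), Tmf1 (0.82) and C2cd2 (0.81), none of them called by genotype. For Atf5 they were Cpne2 (0.84), Olfr550 (0.82) and Alx4 (0.82), of which Olfr550 and Alx4 were higher in Gαq. For Ddit3 they were BC031181 (0.90), Srek1ip1 (0.90) and Rala (0.89), none called. No one of the 10 genes was among these nearest genes, of which Olfr550 (mean 0.527 CPM) and 9330104G04Rik (0.551 CPM) were at low levels.

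**Figure D5:**
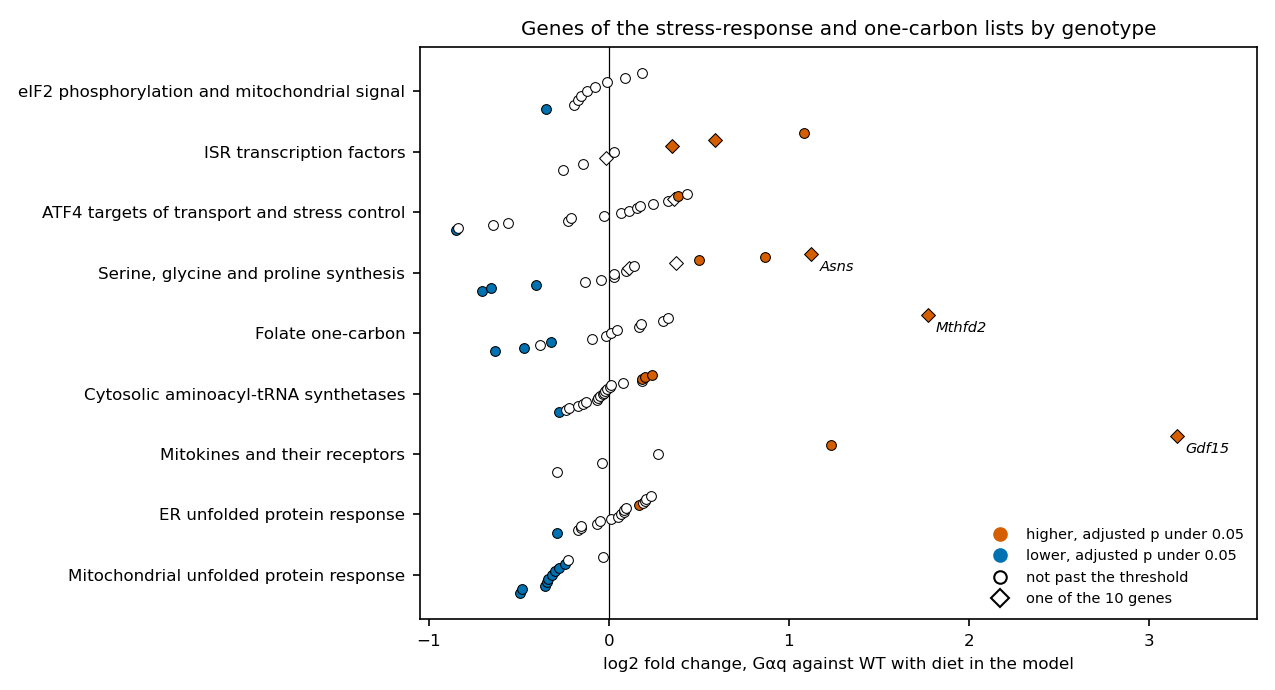
Log2 fold change by genotype, with diet in the model, of every gene tested in 9 lists of stress-response and one-carbon genes. Orange is called higher, blue called lower and white not called, and diamonds are genes of the 10. Gdf15 (3.15) and Mthfd2 (1.77) stand apart from the other genes of their lists, and 9 of 11 genes of the mitochondrial unfolded protein response are blue.

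The other genes of the pathway were taken from 9 lists and are described by genotype with diet in the model, without the 10 genes themselves. By the same rule 19.6% of all genes tested were called by genotype, 9.72% higher and 9.92% lower. No list was tested as a set. Upstream, a list of 9 genes held the eIF2 kinases, the subunits Ppp1r15a and Ppp1r15b of the phosphatase, Eif2s1, which encodes the phosphorylated subunit, and Oma1 and Dele1, which link mitochondria to the kinases. Of the 9, 8 were not called. The exception was Dele1, which carries a mitochondrial stress signal to the kinase HRI, and which was lower in Gαq by 0.35 ± 0.08 (log2 fold change -0.35, SE, adjusted p = 0.00289). The median of the list was -0.12, against 0.0038 over all genes tested. Of 4 further transcription factors of the response, 1 was called, Nupr1, a small stress-induced nuclear protein, at 5.78 ± 2.19 CPM in WT CD and 11.9 ± 5.29 CPM in Gαq CD (1.08 ± 0.23, adjusted p = 0.00173).

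Of 15 tested targets of ATF4 in transport and stress control, 13 were not called and the median was 0.07. Among all genes tested 19.6% were called by genotype. Slc7a5, a carrier of large neutral amino acids, was higher in Gαq (0.39 ± 0.12, adjusted p = 0.0293), a call lost without any 1 of 7 libraries (adjusted p up to 0.0682). Cth, which makes cysteine from cystathionine, was lower (-0.85 ± 0.20, adjusted p = 0.00372), opposite to the direction of Asns. Of 17 genes of the unfolded protein response of the endoplasmic reticulum, 15 were not called, and the median was 0.07. Dnajb9 was lower (-0.29 ± 0.08, adjusted p = 0.00946) and Dnajb11 higher (0.17 ± 0.06, adjusted p = 0.0402), the latter call lost without any 1 of 11 libraries (adjusted p up to 0.093).

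Of 11 further genes of serine, glycine and proline synthesis, 2 were higher, 3 were lower and 6 were not called, with a median of 0.03. Among all genes tested 9.72% were called higher and 9.92% lower. Those that were higher are the proline enzymes Aldh18a1 (0.50 ± 0.12, adjusted p = 0.00541) and Pycr1 (0.87 ± 0.22, adjusted p = 0.00722, or 0.0668 with limma voom). Pycr1 rose from 0.775 ± 0.206 CPM in WT CD to 1.96 ± 0.374 CPM in Gαq CD. Those that were lower act on glycine and serine: Dld, a subunit of the glycine cleavage system and of other dehydrogenases (-0.66 ± 0.07, adjusted p = 9.41e-07), and the hydroxymethyltransferases Shmt1 (-0.71 ± 0.16, adjusted p = 0.00361) and Shmt2 (-0.41 ± 0.08, adjusted p = 0.00106).

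In folate metabolism Mthfd2 was the exception. Of the 12 other genes tested in that list none was higher in Gαq and 3 were lower: Mtr, methionine synthase (-0.63 ± 0.12, adjusted p = 0.000982), Mthfd1, the cytosolic enzyme of the same chemistry as Mthfd2 (-0.32 ± 0.08, adjusted p = 0.00622), and the folate carrier Slc19a1 (-0.47 ± 0.16, adjusted p = 0.0402), whose call was lost without any 1 of 11 libraries (adjusted p up to 0.101). The list median was -0.003, and 9.92% of all genes tested were called lower. Of 20 cytosolic aminoacyl-tRNA synthetases, Rars (0.24 ± 0.07), Lars (0.20 ± 0.06) and Nars (0.19 ± 0.06) were higher, Wars was lower (-0.28 ± 0.07), and 16 were not called, with a median of -0.03. With 4 of 20 called, this list stood near the 19.6% of all genes called by genotype. The calls of Lars and Nars were lost with no filter on low counts (adjusted p = 0.0674 and 0.0794) and without Gαq ERTU 17, that of Lars also without any 1 of 4 other libraries (adjusted p up to 0.0659). The number higher was 1 to 4 over these fits.

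Genes listed for the mitochondrial unfolded protein response were mostly lower in Gαq, the other way from Gdf15 and Mthfd2. The study reported that most genes for oxidative phosphorylation and fatty acid degradation were also lower in Gαq hearts. Whether this list differed from other mitochondrial genes was not tested. Of the 11 genes in this list, mitochondrial chaperones and proteases, 9 were lower in Gαq and none was higher, with a median of -0.32. By the same rule 9.92% of all genes tested were called lower. The count was 8 to 9 when 1 library was left out and 8 to 10 under the other alternatives. Hspa9, the matrix chaperone mortalin, stood at 1070 ± 98.6 CPM in WT CD and 785 ± 77.1 CPM in Gαq CD (-0.48 ± 0.08, adjusted p = 0.000105). Lonp1, a matrix protease, changed by -0.34 ± 0.07 (adjusted p = 0.00104), Hspd1, the chaperonin HSP60, by -0.36 ± 0.08 (adjusted p = 0.00174) and Htra2 by -0.32 ± 0.06 (adjusted p = 0.00131). On CD alone 3 of the 11 were called, all lower, where 4.10% of all genes were called lower. On ERTU alone 4 were called, all lower, where 4.24% of all genes were.

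Of the receptors of the mitokines and related genes, Gfral and Klb, the receptor of GDF15 and the coreceptor of FGF21, were too low to test. Among the 4 others tested 1 was called, the FGF receptor Fgfr2, at 0.992 ± 0.721 CPM in WT CD and 2.15 ± 1.12 CPM in Gαq CD (by genotype, adjusted p = 0.00991). For diet, ERTU in WT, ERTU in Gαq and the interaction, 0 genes were called by edgeR in each of the 9 lists.

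Markers of other cells also differed by genotype, and in a bulk sample fewer cells of a type and less RNA per cell cannot be told apart. The summed level of 8 fibroblast markers was 1540 to 3150 CPM in the WT hearts and 2900 to 4390 CPM in the Gαq hearts (exact permutation p = 0.0476 on CD and 0.0159 on ERTU), with 2 of 8 genes called on each diet, and positive differences in all 8. That of 8 lymphocyte markers was 1.92 to 3.53 CPM in WT and 2.99 to 8.71 CPM in Gαq (exact permutation p = 0.0159 on each diet). Endothelial markers were lower in Gαq on CD (log2 difference -0.35, exact permutation p = 0.0476) and not past the threshold on ERTU (exact permutation p = 0.254). Macrophage markers ran from 353 to 574 CPM in WT and from 387 to 739 CPM in Gαq and cardiomyocyte markers were lower by 0.20 on CD and 0.19 on ERTU (log2 differences -0.20 and -0.19), differences that missed the threshold (exact permutation p = 0.143 or higher). No marker of these lists was at 0 in all libraries.

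Without Nppa, which ventricles in failure also make, the 4 other atrial markers ran from 2.26 to 247 CPM in sum in WT and from 4.73 to 703 CPM in Gαq, so the amount of atrial RNA varied within both genotypes (exact permutation p = 0.714 on CD and 0.143 on ERTU). Smooth muscle, fat, red blood cell and liver markers did not differ past the threshold in any of the 4 comparisons (exact permutation p = 0.127 or higher). The sum of all 6 skeletal muscle markers was higher in Gαq on CD (log2 difference 1.59, exact permutation p = 0.0476). It was not past the threshold on ERTU (1.12, exact permutation p = 0.127). With ERTU in Gαq hearts it was lower (-0.76, exact permutation p = 0.0476). Acta1, which failing ventricles also make, set this sum. The 5 others were higher in sum in Gαq on ERTU (log2 difference 1.16, exact permutation p = 0.0476), with 4 of the 5 genes higher and 1 called. Their sum was 0.725 to 1.92 CPM in WT ERTU and 1.61 to 6.20 CPM in Gαq ERTU. On CD the difference had the opposite sign (-0.32, exact permutation p = 0.397). The part of these cells in the values of Gdf15, Mthfd2, Asns and Atf5 was not tested.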

How the data were processed

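Raw counts per gene were deposited by the authors, who aligned read pairs from poly(A) libraries to mm10 with STAR 2.6.0c and counted nuclear-encoded genes with featureCounts (Subread 1.6.2). The deposited second table holds log2-like values, the authors' variance-stabilized counts from DESeq2. It served only as an alternative. Of the IDs, 99.5% matched GENCODE M21 symbols.

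Counts were filtered by filterByExpr (16270 of 55450 genes kept), scaled by TMM and tested with the quasi-likelihood test of edgeR 4.0.16 in R 4.3.3 over all 18 libraries. Genotype and diet came from a 2-factor model, and the other 5 comparisons from a model with 1 mean per group. Adjusted p-values (Benjamini-Hochberg over all genes tested) under 0.05 were called. CPM used TMM-scaled totals and log2 CPM a prior count of 2. Marker sums were compared by exact permutation of libraries.

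The 10 genes, the lists and the tests were chosen with earlier results of these data known. All 10 genes are named. List genes named are up to 4 per list, called by genotype with the smallest adjusted p. Pycr1, Gfral and Klb, and the pairs and hearts singled out in correlations, were chosen after their values were seen, as were the marker sums without Nppa and without Acta1. Of the steps, the edgeR test by genotype was run on simulated counts. Alternatives were median-of-ratios scaling, other filters on low counts, DESeq2 1.42.0, limma 3.58.1 voom, other models, medians, rank correlation and leaving out each library. Depth was 15383566 to 20908363 counts per library. Groups and numbers come from the columns, whose numbers were not linked to those in the sample titles. No sequencing batch was given.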

Additional observations from a re-analysis of the deposited data

Results flagged for a closer look

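Each gene was checked in each group for a heart that stood apart, by the gap to its nearest neighbour over the range of the group against Dixon's critical value. This marked 5 of 40 sets of values, where chance gives about 1 in 20 (2 of 40) for normally distributed values. CPM values, and the few counts of Fgf21 above all, need not be so distributed, so the 2 numbers are not a test. Gdf15 stood apart in Gαq ERTU 17, at 37.4 CPM against 5.56 to 8.16 CPM in the other 3 hearts of its group (ratio 0.918), and in WT ERTU 15, at 4.96 CPM against 1.21 to 1.97 CPM (ratio 0.795). Trib3 stood apart in Gαq ERTU 16, at 10.9 CPM against 6.78 to 7.26 CPM (ratio 0.883), and in WT ERTU 14, at 9.54 CPM against 5.05 to 5.58 CPM (ratio 0.882). Fgf21 in WT CD 2 had the only count of its group (ratio 1.0), which is 1 count. The other 4 values so marked were all in ERTU hearts, and no heart was marked for more than 1 gene.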

How the results depend on the processing

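All 13 calls of single genes (5 by genotype, 4 on CD and 4 on ERTU) kept their direction and stayed called under each of the other filters, scalings, models and tests, and without each library in turn. Called genes by genotype were 5, or 6 with limma voom, which added Trib3, and 5 to 6 when 1 library was left out. On ERTU they were 4, or 5 in a fit of only the groups compared, which added Ddit3. The counts of 0 for ERTU, diet and interaction stayed at 0 in every fit run.

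Values near 0 that were not called changed sign. With voom they were Phgdh by diet (0.061), Psat1 by genotype on ERTU (0.0463) and Psat1 for ERTU in Gαq (0.0021), and with the deposited transformed values Phgdh by diet (0.0093). The Spearman rho of Asns and Mthfd2 was 0.0134 against r = -0.03, and r ran from -0.15 to 0.17 when 1 library was left out.

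Leaving out 1 library also turned these log2 fold changes. Atf4 ran from -0.0476 to 0.0508 by genotype, from -0.0092 to 0.0843 on CD, from -0.14 to 0.0659 on ERTU, from -0.0351 to 0.0839 for ERTU in Gαq and from -0.18 to 0.0286 for the interaction. ERTU in WT ran from -0.10 to 0.0939 for Atf5, -0.0813 to 0.24 for Trib3, -0.16 to 0.0745 for Asns, -0.30 to 0.0835 for Phgdh, -0.0739 to 0.26 for Mthfd2 and -0.32 to 0.36 for Gdf15, whose lowest value is without WT ERTU 15. ERTU in Gαq ran from -0.10 to 0.23 for Trib3, -0.26 to 0.29 for Phgdh and -0.17 to 0.13 for Psat1. The interaction ran from -0.0722 to 0.13 for Ddit3, -0.22 to 0.17 for Trib3 and -0.15 to 0.40 for Phgdh. Phgdh by diet ran from -0.18 to 0.0875 and Psat1 by genotype on ERTU from -0.17 to 0.17. For Gdf15, Gαq ERTU 17 moved values by more than 1.5 times: without it the interaction was -1.95 in place of -0.92 (adjusted p = 0.992). The causes of these changes were not tested beyond the library left out. No paired analysis was possible because no replicate number is common to 2 groups in the tables. Depth limited Fgf21 (26 counts in all) and Phgdh (14 to 58 counts per library).

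Among list genes named, calls by genotype were lost without any 1 of these libraries: Slc7a5 without WT CD 1, 2 or 4, Gαq CD 9, WT ERTU 13 or Gαq ERTU 16 or 20, Slc19a1 without WT CD 2 or 5, Gαq CD 6, 7 or 8, WT ERTU 11, 12 or 13 or Gαq ERTU 17, 18 or 20, Dnajb11 without WT CD 1, 2 or 4, Gαq CD 7, 8 or 9, WT ERTU 12, 13 or 14 or Gαq ERTU 16 or 20, Lars without WT CD 4, WT ERTU 12 or 15 or Gαq ERTU 16 or 17, and Nars without Gαq ERTU 17. Their adjusted p then ran from 0.0505 to 0.101. Slc19a1 and Dnajb11 were also lost with no filter on low counts (adjusted p = 0.0613 and 0.114) and Dnajb11 with the deposited transformed values (adjusted p = 0.0523).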
